A study of Homo sapiens with 3 samples.

Results

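BCAR3 and PTK2, genes of cell adhesion signalling, held 160 of the 41836 m6A regions listed for nuclear RNA of MDA-MB-231 cells, 74 in BCAR3 and 86 in PTK2. A region was taken as a member when its midpoint, on either strand, lay in the hg19 window of the gene: chromosome 1 from 94027 to 94313 kb for BCAR3 and chromosome 8 from 141668 to 142012 kb for PTK2. Both genes are transcribed from the minus strand, so the 5′ end of each lies at the high coordinate. A short isoform of BCAR3 starts at 94147 kb by the same rule, and its RNA covers the part of the window from there to 94027 kb. The genes were chosen by the number and position of their regions in this list, so their counts, strands and density are given as a description and carry no test.

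MDA-MB-231 is an established human breast cancer line of triple-negative type. Nuclear RNA of the cells, for which the labels name no treatment, was immunoprecipitated with a rabbit antibody against N6-methyladenosine (m6A, 2 libraries) or with rabbit IgG (1 library), and the outcome used here is 1 list of regions for the series as a whole. The list has a start, end and strand for each region, and a score of 1 throughout. No value belongs to a single library, so no position, width or density below has a replicate error, and neither the read depth nor the enrichment over IgG is known. The presence of a region requires both the mark and enough of the RNA, and these cannot be told apart here. The list has no expression values, so the identity of the cells was not checked against markers.

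BCAR3 encodes an adaptor protein with an SH2 domain that binds the docking protein BCAR1 and is known for conferring resistance to anti-estrogens when overexpressed in breast cancer cells. PTK2 encodes focal adhesion kinase, a tyrosine kinase that is activated where integrins attach cells to the matrix, recruits SRC and, with it, leads to phosphorylation of BCAR1. An intron of PTK2 holds the hairpin of miR-151a, so its precursor RNA is also a primary microRNA transcript. The METTL3 and METTL14 complex writes m6A on RNA while it is being made, and nuclear RNA can therefore carry the mark on unspliced precursors, introns included.

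The stretch of the BCAR3 short isoform carried nearly all of the gene's m6A regions. In GENCODE release 29, used for lengths only because it is annotated in GRCh38, a BCAR3 transcript of 120.0 kb and one of 285.4 kb share a 3′ end, and the shorter starts 165.3 kb into the longer. Further transcripts of 125.5, 93.9 and 22.5 kb lie in the upstream part, so it does not belong to the longest transcript alone. The downstream stretch is shared as well, because the transcript of 285.4 kb also spans it. A region there can therefore not be assigned to the RNA of the short isoform. The 250 bases before the start of the short transcript are shown because the dense regions set in near the start that the rule gives. They are from RefSeq (GRCh38.p14, chr1:93681838-93682087, minus strand, written 5′ to 3′ in the direction of transcription), with each CG dinucleotide in capitals. No GRCh38 position was compared with a region.

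BCAR3 short isoform promoter: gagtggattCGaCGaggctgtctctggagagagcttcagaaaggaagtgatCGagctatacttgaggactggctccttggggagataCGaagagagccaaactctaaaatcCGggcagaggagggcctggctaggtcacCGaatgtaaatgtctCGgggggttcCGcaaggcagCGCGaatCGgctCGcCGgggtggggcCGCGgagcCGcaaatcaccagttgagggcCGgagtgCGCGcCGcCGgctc

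This promoter held 21 CG dinucleotides, and its G and C content was 61.2%. Over 35116 promoter stretches of the same length in RefSeq the median was 11 CG dinucleotides, 30.2% held 21 or more and 93.9% held at least 1 (CG reads the same on both strands). The letters of the GC box (GGGCGG), searched on both strands, had no match in this window and occur in 42.6% of all such stretches. The TATA box, searched as TATAAA on both strands, was likewise not matched and occurs in 10.7% of them. The same held for the letters CCAAT, which occur in 32.0%. RefSeq lists 10 starts for BCAR3, with 1 to 26 CG dinucleotides before them. The next start downstream of the one shown lies close to it. Its 250 bases (chr1:93681371-93681620) held 22 CG dinucleotides and 1 match to GGGCGG, so the missing GC box holds for the shown stretch only. No PTK2 promoter is shown.

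BCAR3 had many listed regions in its downstream part and almost none in its upstream part. Of 73 minus-strand regions, 71 lay in the 121 kb next to the 3′ end of the window and 2 in the 165 kb upstream. The 121 kb include the whole kilobase that the rule gives for the short isoform's start. The density was 5.87 regions per 10 kb in the first stretch and 0.12 in the second, a 48.4-fold difference (95% exact interval, 12.9 to 407). The interval covers counting error only and takes regions as independent, which neighbouring regions of one RNA are not. Nor does it allow for the choice of the gene by the number and position of its regions. The regions covered 4.54% of the nucleotides of the short isoform's stretch and 0.042% of the rest.

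The boundary coincided with the short isoform's start to within the precision of the rule. The most upstream of the 71 regions lay on chromosome 1 from 94147334 to 94147353 and was 20 nt wide. Because the rule gives the start to the kilobase, the side of the start on which this region lies is not known, and it was counted with the short isoform. The next regions downstream ran from 94146094 to 94146138 (45 nt) and from 94142593 to 94142619 (27 nt). Upstream, the minus strand was empty for 148 kb, up to a region from 94295538 to 94295584 (47 nt). The remaining upstream region, from 94307509 to 94307531 (23 nt), lay 5.48 kb from the upstream edge of the window. Both upstream regions therefore lay within 20 kb of the window's 5′ edge.

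**Figure D1:**
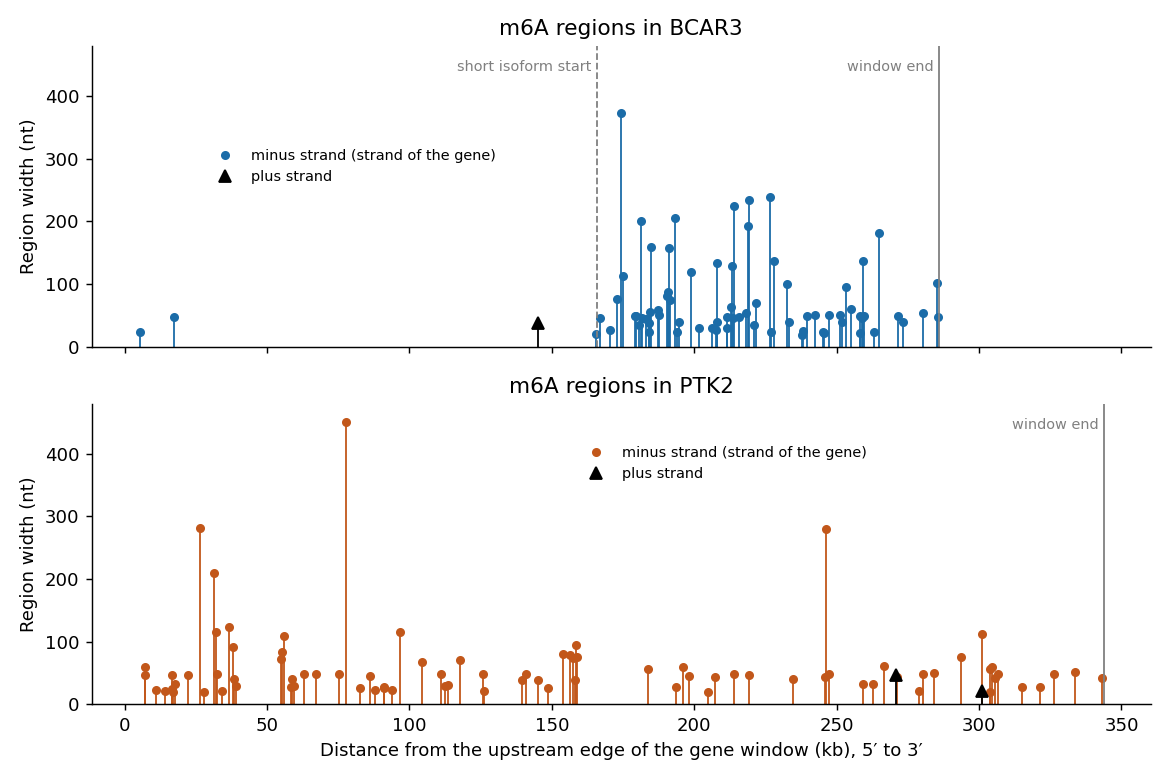
Each m6A region of BCAR3 (top) and PTK2 (bottom) is drawn at its distance in kb from the upstream edge of the gene window, with its width in nt as the height; circles are minus-strand and triangles plus-strand regions. In BCAR3, 71 of 73 minus-strand regions lie within 1 kb of the dashed line at the short isoform's start or downstream of it, whereas those of PTK2 run from end to end.

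Within the short isoform's stretch of BCAR3 the regions followed one another without a long break. The longest of 70 gaps was 6.73 kb, on chromosome 1 between 94032873 and 94039605, and the median gap was 1.13 kb. Gaps of at most 1 kb numbered 34 (48.6%), and 20 gaps were at most 300 nt. The stretch was least dense toward its 3′ end: divided into 3 equal stretches of 40.3 kb, it held 27, 27 and 17 regions from upstream to downstream. In bins of 10 kb laid from the upstream edge of the window, 14 bins in a row were empty and the 13 bins that followed held 2 to 10 regions each.

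The fullest bins of BCAR3 held 10 regions each. One reached from 180 to 190 kb behind the upstream edge, with regions from 94125345 to 94132360, and the other from 210 to 220 kb, with regions from 94093669 to 94101641. A further peak of 9 regions lay between 250 and 260 kb, from 94053367 to 94062011. The last 26 kb, next to the 3′ end, held 7 regions in 3 bins. The density thus had several maxima inside the short isoform's stretch. It was lowest from 260 to 280 kb, with 2 regions per 10 kb bin, and the shorter bin from 280 to 286 kb held 3.

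PTK2 had m6A regions along its whole length, at a lower density. Its 84 minus-strand regions amounted to 2.44 per 10 kb over 344 kb. The density of the BCAR3 short isoform's stretch was 2.40 times as high (95% exact interval for counting error, 1.73 to 3.34), whereas the density of the whole BCAR3 window, 2.55 per 10 kb, was 1.05 times that of PTK2 (0.753 to 1.45). These intervals do not allow for the choice of the genes by their regions. The most upstream region of PTK2 lay on chromosome 8 from 142004842 to 142004900 (59 nt), 7.13 kb from the upstream edge. The most downstream one, from 141668683 to 141668724 (42 nt), lay 0.703 kb from the downstream edge. Regions thus reached close to both ends of the gene, and 31 of 35 bins of 10 kb held at least 1, against 15 of 29 in BCAR3.

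The upstream part of PTK2 held the most regions. Divided into 4 equal stretches of 86 kb, the gene held 30, 23, 12 and 19 regions from upstream to downstream. The first stretch was 2.50 times as dense as the third (95% exact interval for counting error, 1.24 to 5.36), and this contrast was picked as the highest against the lowest. The first stretch had 3.49 regions per 10 kb, against 5.87 in the BCAR3 short isoform's stretch (ratio 1.68, 1.08 to 2.67). This interval too covers counting error only, takes regions as independent and does not allow for the choice of the genes by their regions. The order depends on the cut: the 19 most upstream PTK2 regions, within a span of 32.0 kb fitted to them, had 5.94 per 10 kb. The fullest bin of PTK2, from 30 to 40 kb behind the upstream edge, held 8 regions between 141972940 and 141980806. The 4 bins with 6 regions started at 10, 50, 150 and 300 kb. Between 160 and 300 kb no bin held more than 3.

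**Figure D2:**
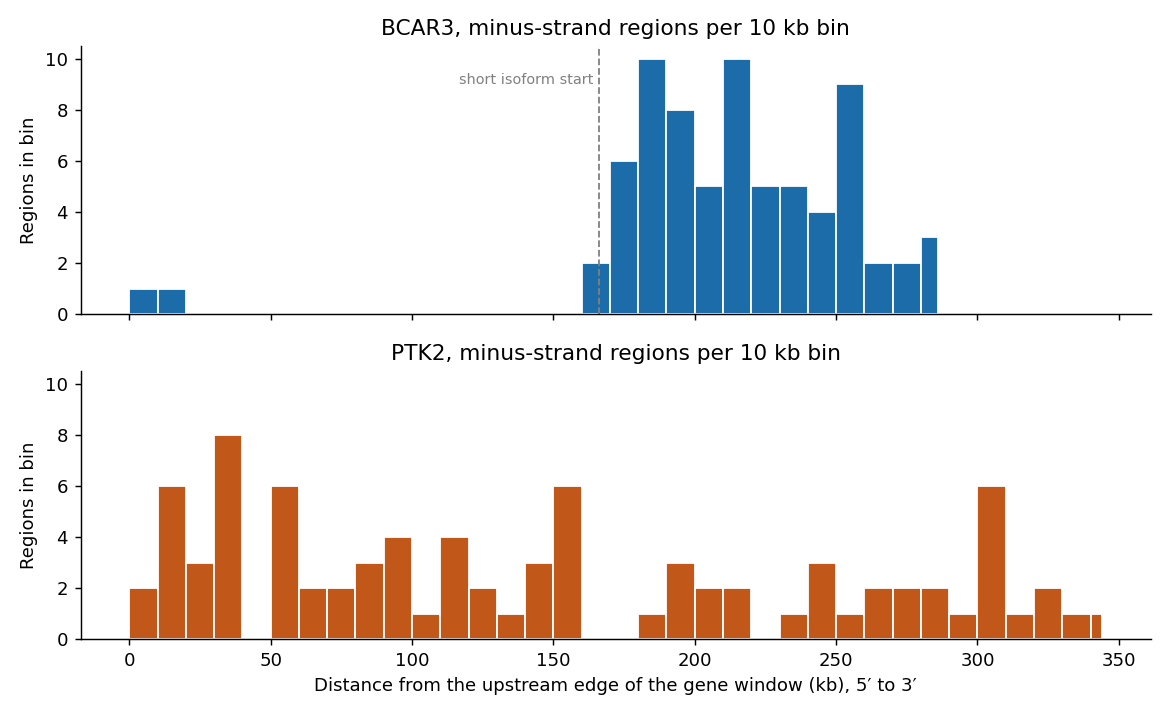
Bars give the number of minus-strand m6A regions in each bin of 10 kb (the last bin of each gene is shorter), plotted by distance in kb from the upstream edge of the window. BCAR3 has 14 empty bins before the short isoform and up to 10 regions per bin in it; PTK2 has at most 8 regions in a bin and 4 empty bins.

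Both genes were crowded when set beside the list. Of 22633 bins of 10 kb that held a region anywhere in the list, counted per strand on a fixed grid, 61.3% held 1 region and 5.97% held at least 5. The share with at least 5 was 53.3% of the occupied bins of BCAR3 (8 of 15) and 16.1% of those of PTK2 (5 of 31). Bins with 10 regions or more made up 0.72% of the occupied bins of the list, and the highest count was 18. On a fixed grid of windows as long as the BCAR3 short isoform, 4 of 10126 occupied windows held 71 regions or more and the median was 2. For the length of PTK2, 5 of 6883 occupied windows held 84 or more, with a median of 3. These shares describe where the genes stand in the list from which they were chosen. The comparison is not like for like: gene windows are placed on the gene, whereas the grid can cut a dense stretch. The 71 regions also come from 121 kb, against grid windows of 120 kb.

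**Figure D3:**
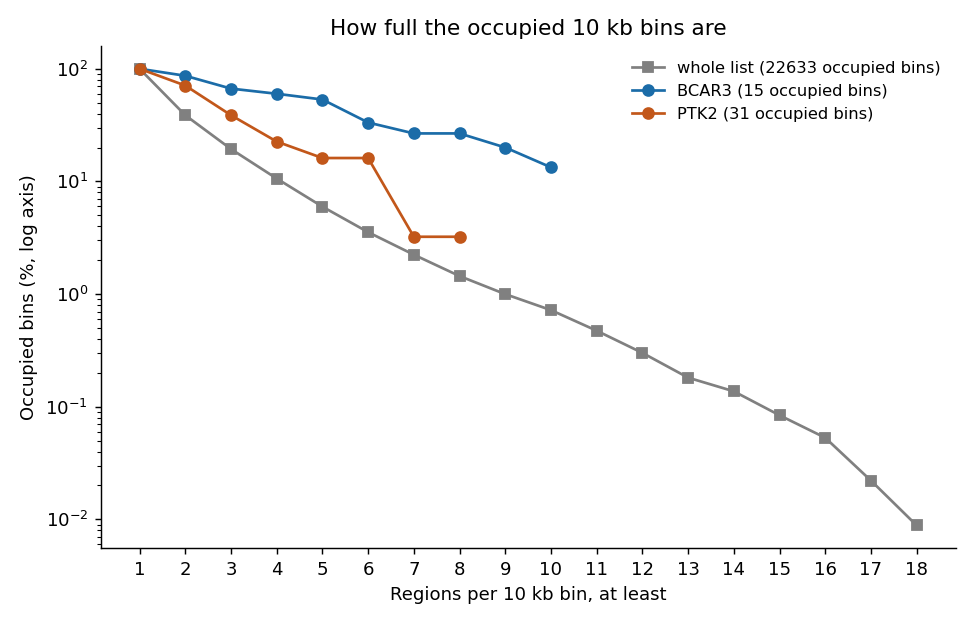
The share of occupied bins of 10 kb (log axis, in %) that hold at least the number of minus-strand regions on the horizontal axis is shown for BCAR3 and PTK2, with the bins of the whole list on both strands in grey. At 5 regions the shares are 53.3%, 16.1% and 5.97%.

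Long gaps were placed differently in the genes. BCAR3 had 2 gaps of 10 kb or more, of 148 kb and 11.9 kb, both upstream of the short isoform's start, and together they made up 56.0% of the window. The 148 kb gap held 1 region on the plus strand. PTK2 had 6 such gaps, of 11.3 to 24.7 kb, which added up to 26.7% of its window. Its longest gap, 24.7 kb, lay between 141828426 and 141853096, near the middle of the gene. The next 2 lay between 141957319 and 141972940 (15.6 kb) and between 141777444 and 141792627 (15.2 kb).

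Regions bordered these PTK2 gaps on both sides, and some of the borders were crowded. A tight cluster of 5 regions from 141853096 to 141855555 bordered the longest gap on its upstream side, and the regions of the fullest bin bordered the gap of 15.6 kb on the same side. The median gap was 2.75 kb in PTK2 and 1.24 kb in BCAR3, against 4.69 kb between same-strand neighbours in the whole list. Gaps of at most 1 kb made up 26.5% of the gaps of PTK2 (22 of 83), close to the 24.6% of the list, and 47.2% of those of BCAR3 (34 of 72). The gaps of the list include those between genes, which a gene window cannot hold.

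**Figure D4:**
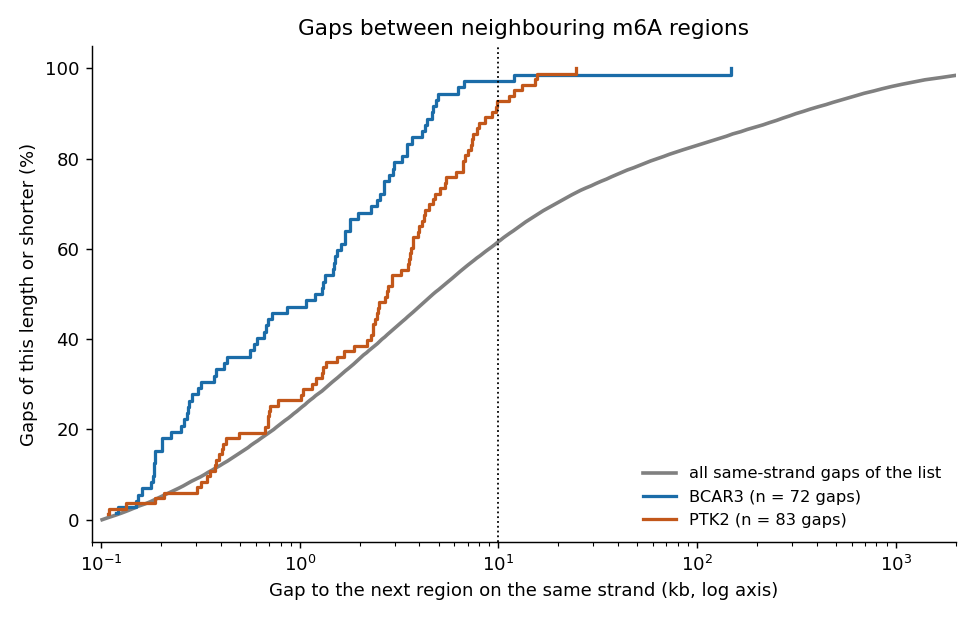
Curves give the percentage of gaps between same-strand neighbours that are as long as the value on the horizontal axis (kb, log scale) or shorter, for BCAR3, PTK2 and the whole list; the dotted line marks 10 kb. The median gap is 1.24 kb in BCAR3, 2.75 kb in PTK2 and 4.69 kb in the list, and the last step of BCAR3 is its gap of 148 kb.

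Joining same-strand regions at most 10 kb apart gave 1 chain of 71 regions in BCAR3 plus 2 regions alone. PTK2 fell into 7 chains, 1 of which was a region alone. The largest PTK2 chain held 24 regions over 71.5 kb from 141885786 to 141957319. Chains of 19 regions stood at either end of the gene, at its 5′ end over 32.0 kb from 141972940 to 142004900 and at its 3′ end over 84.2 kb from 141668683 to 141752847. The 5′ chain was the denser of these, with 5.94 regions per 10 kb against 2.26. That density is close to the 5.92 of the BCAR3 chain.

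At closer range, BCAR3 held more tight clusters than PTK2. When same-strand regions at most 1 kb apart were joined, 4 clusters of 4 or more regions were found in BCAR3 and 2 in PTK2. The most fully covered was in BCAR3 on chromosome 1 from 94121533 to 94122528, where 4 regions of 74, 157, 87 and 81 nt covered 40.1% of 0.996 kb. Another, from 94098796 to 94100037, had 4 regions of 45 to 225 nt over 37.1% of 1.24 kb. In PTK2 the cluster from 141853096 to 141855555 had 5 regions of 38 to 94 nt over 14.6% of 2.46 kb. Regions with no neighbour within 1 kb were 27.4% of the minus-strand regions in BCAR3 (20 of 73) and 60.7% in PTK2 (51 of 84).

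The m6A regions of BCAR3 had a somewhat higher median width than those of PTK2 and a larger share of wide ones. Their median width was 49 nt (quartiles 38 and 93, range 19 to 373), against 46 nt (29 and 59.75, range 20 to 450) in PTK2 and 45 nt in the rest of the list. The 95% intervals of the gene medians for counting error were 46 to 54 nt and 41 to 49 nt. Other minus-strand chains of 20 or more regions had a median of 49 nt, the same as BCAR3. Regions over 100 nt made up 23.0% of BCAR3 (17 of 74, 95% Wilson interval for counting error 14.9 to 33.7%) and 10.5% of PTK2 (9 of 86, 5.60 to 18.7%). The share was 10.2% in the rest of the list and 17.2% in other minus-strand chains of 20 or more regions. Every same-strand pair in the list lies more than 100 nt apart, and the word merged occurs in the name of each region. Whether a wide region stands for several close ones was not tested. The widths were not tested either, because regions of one RNA are not replicates.

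All 17 wide regions of BCAR3 lay in the short isoform's stretch, which held 71 of its 73 minus-strand regions of any width. PTK2 had 6 of its 9 wide regions in the most upstream of the 4 stretches and 1 in each of the others. That most upstream stretch held 30 of the 84 minus-strand regions of PTK2. The widest region of BCAR3, of 373 nt, ran from 94138377 to 94138749, 8.44 kb downstream of the short isoform's start. Regions of 239 nt (94086284 to 94086522), 234 nt (94093669 to 94093902), 225 nt (94098796 to 94099020) and 206 nt (94119538 to 94119743) followed it in width. All 5 lay in the upstream part of the stretch, up to 60.6 kb downstream of its start, and the most downstream of its 3 equal stretches had no region wider than 181 nt. Regions of 200 nt or more numbered 6 in BCAR3 (8.11%) and 4 in PTK2 (4.65%), against 1.82% of the rest of the list and 3.87% of other minus-strand chains of 20 or more.

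The widest PTK2 region, of 450 nt, ran from 141934050 to 141934499, 77.7 kb from the upstream edge. A region of 282 nt (141985360 to 141985641) and one of 210 nt (141980597 to 141980806) lay 26.5 and 31.3 kb from that edge. The fifth widest, of 123 nt (141975381 to 141975503), lay 36.6 kb from it. The region of 279 nt, from 141765508 to 141765786, was the only one over 200 nt in the downstream part and lay in a group of 3 with gaps of 11.9 and 11.3 kb on its sides. Wide regions of BCAR3 had a same-strand neighbour at a median of 251 nt, against 404 nt for its narrower ones. In PTK2 these medians were 1.21 and 1.54 kb.

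**Figure D5:**
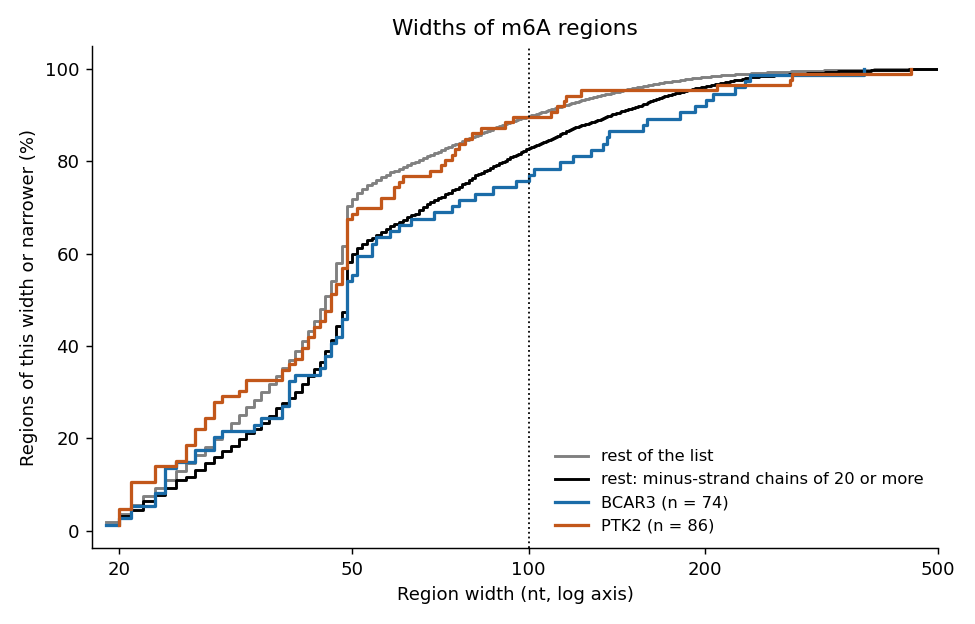
Curves give the percentage of regions as wide as the value on the horizontal axis (nt, log scale) or narrower, for BCAR3, PTK2, the rest of the list and other minus-strand chains of 20 or more regions; the dotted line marks 100 nt. To the right of that line lie 23.0% of the BCAR3 regions, 10.5% of those of PTK2 and 10.2% of the rest of the list.

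Narrow regions were present in both genes. Those under 30 nt made up 20.3% of BCAR3 (15 of 74) and 27.9% of PTK2 (24 of 86), against 19.9% in the rest of the list. The width of 49 nt, the most frequent in the list, was held by 6 BCAR3 and 9 PTK2 regions (8.11 and 10.5%). The share was 8.79% in the rest of the list and 11.5% among its minus-strand regions.

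The deposited strand was that of the gene for nearly every region. In BCAR3 98.6% and in PTK2 97.7% of the regions were on the minus strand. The whole list had 57.4% on the minus strand, but it covers genes of both orientations. The share of the list on the strand of its gene was not computed, so 57.4% is no baseline for it. BCAR3 had 1 plus-strand region, of 38 nt from 94167845 to 94167882, which lay alone in the long gap, 20.5 kb from the nearest minus-strand region. PTK2 had 2, both in its downstream part. The region from 141711027 to 141711047 (21 nt) lay inside a minus-strand region of 112 nt from 141710998 to 141711109. The other, from 141741048 to 141741093 (46 nt), was 0.377 kb from its nearest minus-strand neighbour.

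Just outside the windows the minus strand held no regions. Downstream of BCAR3 the next minus-strand region lay 222 kb beyond the window, and upstream 24.7 kb before it. For PTK2 the distances were 24.1 kb downstream and 1325 kb upstream. On the plus strand, a region lay 8.93 kb beyond the 3′ edge of BCAR3, from 94018029 to 94018067, and none lay within 100 kb of PTK2. From the outermost BCAR3 region to its upstream neighbour was 30.2 kb. This was shorter than the 148 kb gap inside the window but longer than the next longest, 11.9 kb. From the outermost PTK2 region to its downstream neighbour was 24.8 kb, slightly longer than the longest gap inside, 24.7 kb. Whether the regions stop at the window edges was not tested. Downstream of BCAR3 and on both sides of PTK2 the distances were longer than every gap inside the gene.

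At least some BCAR3 regions lay outside exons. Taken as lengths, the 12 BCAR3 transcripts of GENCODE merge into 27 exons, the longest of 1423 nt, with 2.41% of the gene's length. The minus-strand regions formed 34 groups that were farther apart than this longest exon, so that no exon could reach 2 of them. At least 7 groups therefore had no overlap with an exon of these models. For PTK2, whose 57 transcripts merge into 54 exons of up to 1996 nt, the same count gave 52 groups and no lower limit above 0. The exons, UTRs and stop codons that single regions touch, their sequences and their distance from the miR-151a hairpin were not analysed here, because no annotation or genome in hg19 was used.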

How the data were processed

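The deposited list has 6 columns and 41836 regions. The submitters' processing notes name Bowtie2 as a tool and hg19 as the build. Which caller and thresholds made the regions, how IgG was used and how the 2 m6A libraries were pooled is not given in the sources used here. Start and end positions, as the authors deposited them, are the measurements, and the deposited score is 1 for every region. The depth is unknown.

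Positions are counted from 1 with the end included, and width is the end minus the deposited start. Windows, members and lists were chosen with earlier results of these data known. Named regions are the first and last, the 5 widest, those on the opposite strand, those bordering the 3 longest gaps, those of the fullest bin and those at the short isoform's start. Counts of tight clusters, density ratios, exon lengths and promoter letters were added after the list was seen. Intervals are 95% exact or Wilson intervals for counting error. A planned list of adhesion pathway genes was not analysed here, since it needs hg19 gene positions. Functions were tested on simulated regions. Intervals were computed with scipy 1.17.1, tables with pandas 2.3.3 and numpy 2.4.6 under Python 3.11.15, and plots with matplotlib 3.10.9.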

Additional observations from a re-analysis of the deposited data

How the results depend on the processing

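Of 40 alternatives to 13 results, 27 stayed within 1.5 times the value given (for the median width, within its 95% interval) and 13 moved further. Counting any overlap or only regions wholly in the window changed no count. Among regions wider than the list median of 45 nt, 46 remained in BCAR3 and 45 in PTK2, and gaps of at least 10 kb numbered 1 and 11. The fullest bin of BCAR3 had 1.6 regions per kb in bins of 5 kb, against 1 in bins of 10 kb. Gaps of at least 5 kb numbered 4 in BCAR3 and 23 in PTK2, and gaps of at least 20 kb numbered 1 in each. At a joining distance of 5 kb BCAR3 had 5 chains and PTK2 24, and at 20 kb PTK2 had 2. These counts move by construction, with fewer regions or another distance. With the boundary of the short isoform moved downstream by 1 kb, 3 regions fell upstream of it, and by 5 kb, 4; moved upstream by 1 or 5 kb it left 2. Leaving out a library was not possible, since the list has no column per library. No paired analysis was possible because the list holds no values for single libraries. With no counts, the depth behind each region limits what the gaps can show: a gap says only that no region was listed there.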
